A study of Homo sapiens with 8 samples.

Results

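Of 36122 genomic regions called as bound by the transcription factor GATA2 in at least 1 of 4 peak lists, 3236 (8.96%) were present in every list, and these shared regions are described here. A shared region had a peak in untreated replicates 1 and 2 and in JQ1 replicates 1 and 2, after peaks that overlapped by at least 1 bp were chained over the lists on chromosomes 1 to 22, X and Y. Presence in the 4 lists chose them, so their presence and their strength relative to other regions are given as description, with no test. The cells were VCaP, an established human prostate cancer line labelled as castrate-resistant, and all of them were kept in steroid-depleted medium for 72 h. The treated groups received 1 µM JQ1 for the last 24 h. The other groups are labelled as non-treated, while the growth protocol names a DMSO control, and they are called untreated here. Chromatin immunoprecipitation and sequencing (ChIP-seq) from single ends gave 1 peak list for each of 4 GATA2 precipitates, 2 per treatment. Nothing in the labels tells if the 2 replicates of a treatment were grown apart, so the spread between them may be technical, and all samples are 1 cell line.

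GATA2 is a zinc-finger factor that binds short DNA words with a GATA core, mostly at enhancers far from gene starts. In prostate cells it is known to act with other factors such as FOXA1 at enhancers. JQ1 occupies the bromodomains of the BET proteins, readers of acetylated histones that gather at active enhancers and promoters and help start and extend transcription. Peak lists hold no RNA, so the genes named below are landmarks for positions and were not shown to be regulated.

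No genome sequence was used here, and sequence could be read only where a shared region lay on a gene start. RefSeq windows of 300 bp (250 bp before to 50 bp after each start, assembly GRCh38.p14) were available for 34943 distinct starts. Only 39 shared regions touched 41 of these windows, or 0.117% of them. In 23 regions the summits of all 4 lists, the points of highest coverage, fell inside a window. They lay at 13 protein-coding genes and in 11 windows of noncoding RNAs. The sequences below are up to 50 bp on either side of the median summit, cut at the edge of the window, written along the strand of the gene. They are shown because they are the stretches under the shared summits themselves. Capitals mark the GATA hexamer TGATAA, its variant AGATAA, or the forms TGATAG or else AGATAG, found on either strand.

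Of the 15 stretches with a hexamer, 8 are printed, in order of rank among the shared regions. They were picked after their values were seen, and those at THSD4, CACNB2, RNF220, LOC101929727, LOC124905244, LINC00161 and LOC105369895 are left out.
LOC105374925 (chr6:11305118-11305218, plus strand): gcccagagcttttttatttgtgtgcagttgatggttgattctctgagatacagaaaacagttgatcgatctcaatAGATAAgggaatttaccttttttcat
LOC124904899 (chr20:38109818-38109918, plus strand): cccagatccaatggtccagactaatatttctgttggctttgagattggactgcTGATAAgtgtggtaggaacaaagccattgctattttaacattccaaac
HECW2-AS1 (chr2:196259882-196259982, plus strand): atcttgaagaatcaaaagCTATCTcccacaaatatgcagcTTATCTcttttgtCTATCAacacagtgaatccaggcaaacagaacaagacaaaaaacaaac
ZG16B (chr16:2830053-2830117, plus strand): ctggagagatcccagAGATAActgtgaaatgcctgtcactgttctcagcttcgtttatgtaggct
HSD3B1 (chr1:119507092-119507192, plus strand): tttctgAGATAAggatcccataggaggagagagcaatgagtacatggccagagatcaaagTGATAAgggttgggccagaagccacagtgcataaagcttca
NEDD4L (chr18:58149144-58149244, plus strand): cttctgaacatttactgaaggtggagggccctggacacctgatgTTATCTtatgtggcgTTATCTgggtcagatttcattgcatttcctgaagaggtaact
ADD3 (chr10:109996239-109996339, plus strand): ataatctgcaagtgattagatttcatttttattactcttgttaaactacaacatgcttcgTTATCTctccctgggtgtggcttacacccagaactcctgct
RANBP2 (chr2:108719232-108719330, plus strand): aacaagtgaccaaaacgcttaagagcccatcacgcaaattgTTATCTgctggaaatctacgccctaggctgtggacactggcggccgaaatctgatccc

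In the other stretches of the same kind none of the 4 hexamers stood. Those at TMPRSS11F, DDX41, LOC107986733, LOC105375170 and LINC02913 are left out, and these are printed.
DNAH5 (chr5:13944773-13944873, minus strand): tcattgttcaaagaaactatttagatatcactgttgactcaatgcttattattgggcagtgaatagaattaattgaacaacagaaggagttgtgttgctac
GPR137 (chr11:64270336-64270436, plus strand): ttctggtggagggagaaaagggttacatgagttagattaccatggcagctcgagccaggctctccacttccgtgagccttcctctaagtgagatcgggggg
STK40 (chr1:36386056-36386156, minus strand): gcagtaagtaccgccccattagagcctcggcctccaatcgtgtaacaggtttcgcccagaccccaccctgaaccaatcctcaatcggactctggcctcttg

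The strongest of these gene-start regions, at the noncoding gene LOC105374925 on chromosome 6, ranked 84 of 3236 and its hexamer lay 28 bp from the median summit. At HSD3B1, whose enzyme makes active steroids from precursors, the summit lay 61 bp before the start and a TGATAA lay 13 bp from it, with an AGATAA farther out. In NEDD4L, the gene of a ubiquitin ligase, the stretch held 2 hexamers, the nearer centred 3 bp from the summit. At RANBP2, a nuclear pore gene, a single hexamer lay 4 bp from the summit. In all, 15 of the 23 stretches held a hexamer and in 11 its centre lay within 15 bp of the median summit. A stretch from the middle of each of the 34943 windows held one in 3382 (9.68%). No such share was taken for the limit of 15 bp. The stretches at DNAH5, a dynein gene of motile cilia, at the receptor gene GPR137 and at the kinase gene STK40 held none, which says only that these letters are not in these bases. The windows of DNAH5 and GPR137 did hold a hexamer outside the stretch.

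Among whole 300-bp windows, a hexamer stood in 8742 of 34943 (25.0%). It stood in 27 of the 41 windows touched by a shared region (65.9%) and in 19 of the 25 that held all 4 summits (76.0%, 95% Wilson interval 56.6 to 88.5). Windows touched by any region of the 4 lists held one in 191 of 282 cases (67.7%), so the share at windows touched by shared regions was close to that at bound gene starts in general. Base composition moved with it. The median GC content was 58.7% over all windows and 46.3% over those with all 4 summits. Among windows of 40% to under 50% GC, 44.1% of all windows and 8 of the 9 with all 4 summits held a hexamer. At 60% GC or more, it was 8.04% of all windows and 3 of 5. The part of base composition in the difference was not tested beyond these classes.

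At HSD3B1 the precipitated fragments stacked over the summit numbered 29 and 67 in untreated replicates 1 and 2 and 18 and 40 in JQ1 replicates 1 and 2. The region at NEDD4L had 28 and 76 fragments untreated and 20 and 25 with JQ1. At LOC105374925 the stacks were 101 and 240 untreated and 78 and 191 with JQ1. In these regions the JQ1 stack was the lower one within each replicate, and the replicate 2 stack the higher one within each treatment. These stacks are not corrected for coverage. On the scale corrected for coverage, NEDD4L with JQ1 was lower in replicate 2 than in replicate 1. LOC105374925 hardly differed by treatment in replicate 2 on that scale, at 122.67 times background untreated and 122.27 with JQ1. ADD3, the gene of an adducin of the membrane skeleton, was higher with JQ1 in both replicates on that scale. Its stacks were 19 and 65 fragments untreated and 22 and 59 with JQ1. Of the 23 regions, 17 were lower with JQ1 in both replicates on that scale and 2 were higher in both, the second being the region at the noncoding gene LOC105369895. Over all shared regions 60.4% were lower and 10.7% higher in both.

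The stacks were recovered from the deposited lists, since the authors' fold enrichment and p-value at each summit together fix the fragment count and the local background that the peak caller used. Whole fragment counts came out for 100% of peaks in every list, to within 0.01 in −log10 p. Fragment counts of untreated replicate 2 had been scaled by 0.686 by the caller. Mean coverage of the genome by fragments was 1.25 and 1.96 in untreated replicates 1 and 2 and 1.13 and 1.56 in JQ1 replicates 1 and 2. Summit coverage below is the stack, with the caller's scale, divided by the genome-wide background of its own list, so 20 means 20 times the background. It corrects for the number of fragments but not for differences in how well the precipitation worked.

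In every list the shared regions were among the strongest. Their peaks made up 49.1% (95% Wilson interval 47.9 to 50.3) of the 6902 peaks of untreated replicate 1 and 67.6% (66.3 to 68.9) of the 4974 of JQ1 replicate 1. In the long lists of replicate 2 they made up 13.2% (12.8 to 13.6) of 27373 untreated peaks and 11.4% (11.0 to 11.7) of 32404 JQ1 peaks. The 2 short lists therefore decided which regions were shared: 2890 regions were missing only from JQ1 replicate 1, 1329 only from untreated replicate 1, and 13 and 15 only from untreated and JQ1 replicate 2. Without the list of JQ1 replicate 1, 6126 regions would have been in all of the other 3. Of the 1000 peaks of best q-value in each list, 92.2% and 90.2% belonged to shared regions in untreated replicates 1 and 2, and 95.1% and 82.9% in JQ1 replicates 1 and 2.

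The median stack over the shared regions was 29 fragments in untreated replicate 1 (lowest 8, highest 258) and 106 in untreated replicate 2 (12 to 304). With JQ1 it was 23 in replicate 1 (7 to 218) and 69 in replicate 2 (11 to 288). Median summit coverage was 23.2 and 54.2 times background without JQ1 and 20.4 and 44.2 with it. The replicates stood further apart than the treatments, and both replicate 2 values lay above both replicate 1 values in 2921 regions (90.3%), the reverse in 14. Coverage was highest in untreated replicate 2 for 2624 regions and in JQ1 replicate 2 for 555. Other peaks of the same lists had a median coverage of 15.2, 16.9, 14.2 and 14.7 in untreated replicates 1 and 2 and JQ1 replicates 1 and 2, a narrower range than that of the shared regions.

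**Figure D1:**
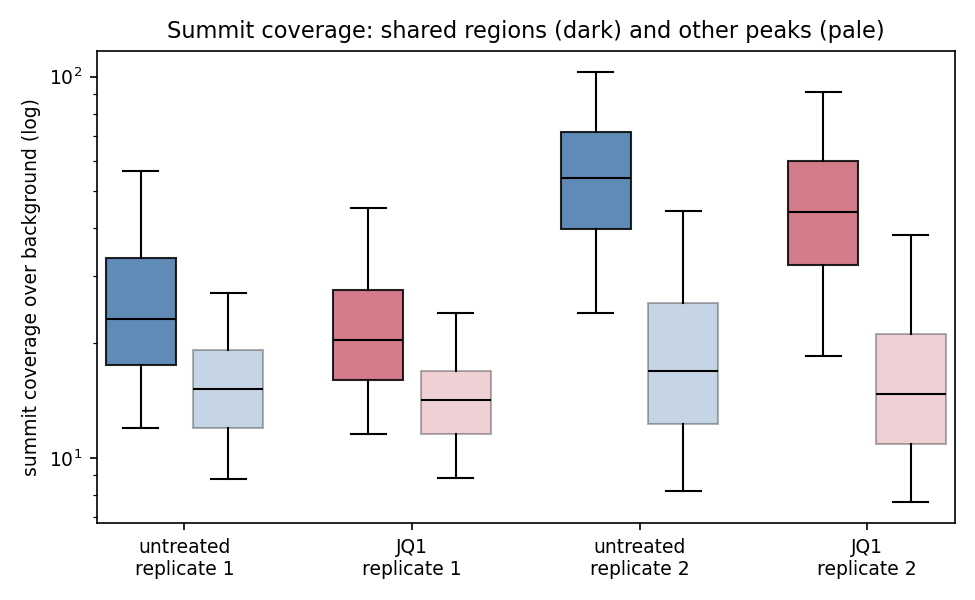
Summit coverage over the genome-wide background (log axis) in the 4 peak lists, for the 3236 shared regions (dark boxes) and all other peaks of the same list (pale boxes). Boxes span the quartiles with the median as a line and whiskers reach the 5th and 95th percentiles. Median coverage of shared regions was 23.2 and 54.2 in untreated replicates 1 and 2 and 20.4 and 44.2 in JQ1 replicates 1 and 2, and that of other peaks 14.2 to 16.9.

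The authors' fold enrichment, a ratio to the local background with a pseudocount of 1, had medians of 7.40 and 18.6 over the shared regions in untreated replicates 1 and 2 and of 6.57 and 16.9 in the JQ1 lists. A fold of 10 or more was reached by 825 and 2815 shared regions without JQ1 and by 468 and 2700 with it. At the edge of the rule, the region inside ARID4B was shared with a stack of only 8 fragments and a −log10 q of 1.33 in untreated replicate 1, and that inside HYCC2 with 1.34 in JQ1 replicate 1. Just outside, the strongest region missing only from JQ1 replicate 1 lay inside the phosphodiesterase gene PDE4D (−log10 q 46.5 and 143.6 untreated, 148.4 in JQ1 replicate 2). The strongest missing only from untreated replicate 1 lay 0.760 kb from HOXC13, a homeobox gene (94.6 in untreated replicate 2, 40.5 and 104.0 with JQ1). A missing peak says only that none stands in that list as analysed here.

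Summits of the 4 lists coincided closely. The distance between the outermost of the 4 summits had a median of 24 bp and was within 50 bp in 85.8% of shared regions and within 100 bp in 94.9%. It exceeded 200 bp in 78 regions, with a maximum of 922 bp. Between pairs of lists the median distance was smallest between the replicate 2 lists (7 bp) and largest between the replicate 1 lists (15 bp), which had the shallower stacks. Shared regions were 394 bp wide at the median (201 to 1674 bp), against 230 bp for all other regions, and together covered 1396.8 kb. The best peaks of the 4 lists had a median of 199 bp in common, and in 11 shared regions they had none. Most shared regions (2718, or 84.0%) held a single peak in each list, and 53 held more than 1 in every list. The widest were a 1674-bp region inside ASZ1, a germ cell gene, one of 1482 bp 43.3 kb from YIPF5 and one of 1440 bp inside PLD1.

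The order of the regions by strength was kept best between the deep lists. Spearman's correlation of summit coverage over the 3236 regions was 0.86 between untreated and JQ1 replicate 2, 0.73 between the untreated replicates, 0.69 between the JQ1 replicates and 0.68 between the replicate 1 lists. Lists of different treatment and replicate gave 0.66 and 0.58. The points share a library on each axis and the correlations are descriptions, as regions are not replicates. Of the 323 strongest regions of each list, 234 were the same in both replicate 2 lists, 216 in both untreated lists, 214 in both replicate 1 lists and 186 in both JQ1 lists. On the deposited fold scale the correlations were lower, from 0.39 to 0.54, and those of the local background itself were 0.17 to 0.49.

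At the top of the order stood regions of high coverage in every list. Ranked by the mean of their within-list positions by q-value, the first 20 had stacks of 80 to 156 fragments in untreated replicate 1 (median 105.5) and 219 to 274 in untreated replicate 2 (median 260.0). With JQ1 they had 52 to 133 in replicate 1 (median 81.0) and 155 to 220 in replicate 2 (median 195.0). All 20 were far above the median shared region in each list. The first lay inside PLD1, a phospholipase gene, with 119 and 259 fragments untreated and 85 and 198 with JQ1. Others inside genes included those in MAML2, GRHL2, CDC45, MYO1H (a myosin gene), ZNF462, TOP6BL, NDUFAF6 and ATP6V1E1 (a subunit of the vacuolar proton pump). In all, 10 lay inside and 10 outside genes. For those outside, the nearest genes were CPLANE1 at 5.49 kb, C1orf202, OPRK1 (an opioid receptor) at 18.9 kb, OR4F15, GRXCR1 at 39.7 kb, RPLP1 (a protein of the ribosomal stalk) at 98.2 kb, IRX3, FGGY at 180.4 kb, the adhesion gene CADM1 at 565.2 kb and GSDMC, a gasdermin gene, at 580.3 kb.

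Of these 20 regions, 14 had lower summit coverage with JQ1 in both replicates and 1, that near GSDMC, had higher coverage in both (73.5 and 134.4 times background untreated, 79.9 and 140.8 with JQ1), next to 60.4% and 10.7% of all shared regions. On the log2 scale the differences in coverage ran from −0.70 at GRXCR1 to 0.12 at GSDMC in replicate 1, and from −0.27 at RPLP1 to 0.08 at ZNF462 in replicate 2. By the deposited fold the direction was less uniform. The fold was higher with JQ1 in both replicates at PLD1, CDC45, ZNF462, NDUFAF6 and RPLP1. It was lower in both at MAML2, OR4F15, GRHL2, CPLANE1, C1orf202, CADM1, TOP6BL, GRXCR1 and FGGY. In the rest of the 20 the replicates went apart, as at GSDMC (15.7 and 44.9 untreated, 21.3 and 35.1 with JQ1). The highest stacks of all shared regions were 304 in untreated and 288 in JQ1 replicate 2. The submitters' processing notes name Picard without its step, and whether removal of duplicate reads limited the tallest stacks was not tested.

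The question of the study was whether JQ1 changes where and how strongly GATA2 is found. Over the shared regions, the JQ1 lists were slightly lower than the untreated list of the same replicate, by less than the spread between replicates. The log2 of the median summit coverage was 4.53 and 5.76 in untreated replicates 1 and 2 (mean 5.15 ± 0.867, SD, n = 2) and 4.35 and 5.46 in the JQ1 replicates (mean 4.91 ± 0.787, SD, n = 2). The difference was −0.18 in replicate 1 and −0.29 in replicate 2, with a mean of −0.24 and a two-sided exact permutation p of 0.667 over the samples. The log2 of the deposited median fold differed by −0.17 and −0.14 in the 2 replicates, with a mean of −0.16 and the same exact permutation p of 0.667. The number of shared regions at fold 10 or more differed by −0.82 and −0.06 on the log2 scale, again with an exact permutation p of 0.667. With 2 lists against 2 this test cannot give less than 0.333, so no threshold of 0.05 could be met, and its outcome does not show that the treatments act alike. When 1 list was left out, the fold difference turned to 0.51 without untreated replicate 2 and to 0.52 without JQ1 replicate 1. These settings leave 1 list against a pair of both replicates, so the gap between replicates enters the difference. On the log2 scale the median fold was 2.89 and 4.22 in untreated replicates 1 and 2 and 2.72 and 4.08 with JQ1. Such settings therefore cannot decide the direction of the JQ1 difference.

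Region by region, the log2 ratio of JQ1 to untreated summit coverage had a median of −0.22 in replicate 1, with 10th and 90th percentiles of −0.79 and 0.43. In replicate 2 the median was −0.30, with percentiles of −0.72 and 0.15. The value was below 0 in 2177 shared regions (67.3%) in replicate 1, where the same held for 67.2% of the 3271 regions in both replicate 1 lists, nearly all of which were shared. In replicate 2 it was below 0 in 2669 shared regions (82.5%), against 64.7% of the 21173 regions in both replicate 2 lists. Coverage was lower with JQ1 in both replicates in 1956 shared regions (60.4%) and higher in both in 346 (10.7%). On the deposited fold the first number was 1220. Both JQ1 values lay below both untreated values in 226 regions (6.98%) and above both in 29 (0.896%). A difference of that kind is seen only where a peak was called in all 4 lists, so regions that had lost or gained their peak with JQ1 in either replicate are not among those counted. Of the shared regions, 335 were lower and 45 higher by at least 0.5 on the log2 scale in both replicates, and 15 were lower and 4 higher by at least 1.

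**Figure D2:**
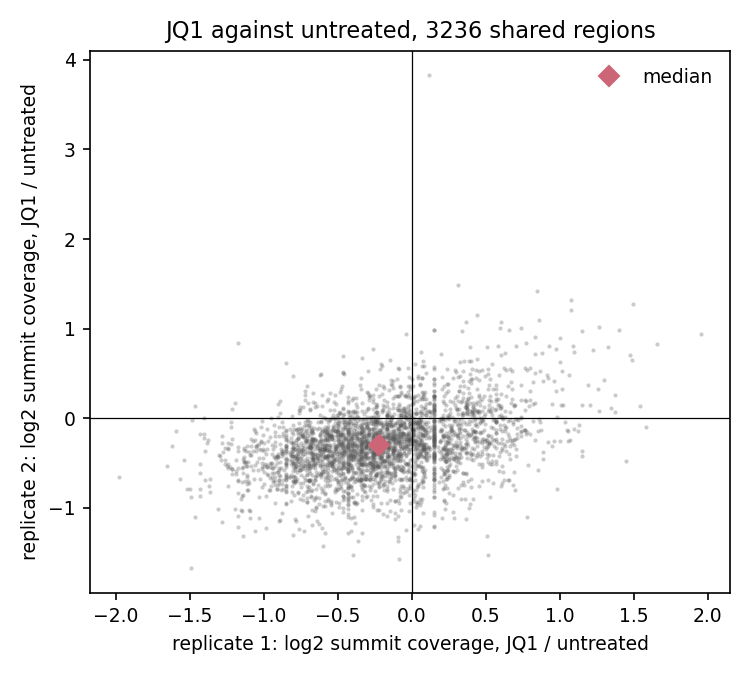
Log2 ratio of JQ1 to untreated summit coverage in replicate 1 (x axis) and replicate 2 (y axis), 1 point per shared region (n = 3236), with the median as a diamond. Most points lie below 0 on both axes (1956 regions), and the columns of points in replicate 1 come from equal small stacks. The isolated point at the top is the region near CNTN6.

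Between the 2 replicates, which share no library, the ratios had a Spearman correlation of 0.36 over the 3236 regions (Pearson 0.39), given as a description. A single region stood apart from all others, 125.7 kb from CNTN6, a neuronal adhesion gene (chr3:1529676-1530179). It had 45 fragments in untreated replicate 1, 44 in JQ1 replicate 1 and 136 in JQ1 replicate 2, but 12 in untreated replicate 2. The log2 ratio was 0.12 in replicate 1 and 3.83 in replicate 2, so the difference rests on the single low value of untreated replicate 2. That value also was the weakest of its list among shared regions, with a −log10 q of 1.71. It is the stack of the peak listed there, and coverage outside the listed peaks was not analysed here.

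Whether a region had peaks in replicate 1 moved with its JQ1 difference in replicate 2, a list pair that the replicate 1 lists do not enter. The median log2 ratio in replicate 2 was −0.30 for shared regions, −0.44 for the 2890 regions whose only replicate 1 peak was untreated, 0.08 for the 1329 whose only replicate 1 peak was with JQ1, and −0.11 for the 13718 with none in replicate 1. Untreated and JQ1 coverage in replicate 2 were 54.2 and 44.2 at the median of the shared regions, 32.2 and 23.7 in the second set, 27.6 and 29.4 in the third and 17.4 and 16.6 in the last. Regions of different strength were therefore also compared within bands of the geometric mean of the 2 replicate 2 coverages. From under 20 to 60 or more, the shared regions had medians of −0.36, −0.42, −0.37, −0.32 and −0.24. Those with no replicate 1 peak had −0.11, −0.13, −0.12, −0.03 and −0.02 in the same bands. The shared regions were thus lower in each band than regions of like coverage without a replicate 1 peak, and closer to 0 in the strongest band than in the others. Regions whose only replicate 1 peak was untreated were lower still in each band, at −0.57, −0.48, −0.42, −0.37 and −0.27. On the deposited fold the medians over all bands were smaller. They were −0.16 for shared regions, −0.22 and 0.07 for those with only an untreated or only a JQ1 peak in replicate 1, and −0.07 for those with none. The members were chosen by these lists, so the comparison of the sets carries no test.

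**Figure D3:**
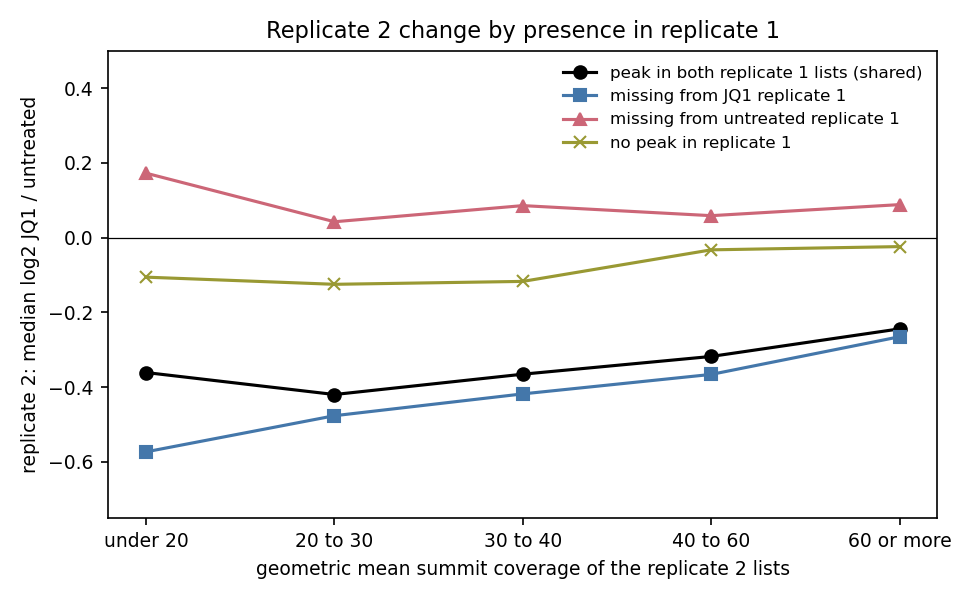
Median log2 ratio of JQ1 to untreated summit coverage in replicate 2 (y axis) in 5 bands of coverage (x axis, times background), for regions split by their peaks in replicate 1. The shared regions run from −0.42 to −0.24, those with a replicate 1 peak only in the untreated list from −0.57 to −0.27, those with one only in the JQ1 list from 0.04 to 0.17, and those with none from −0.13 to −0.02.

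A shift common to all regions leaves their order as it is, so positions within a list were compared as well. A shared region moved down by at least 20 percentile points among the shared regions with JQ1 in both replicates in 134 cases (4.14%) and up in 155 (4.79%). Those moving down had median stacks of 37 and 119 fragments untreated and 20 and 60 with JQ1. Those moving up had 21 and 86 untreated and 26 and 82 with JQ1, where the coverage scale gave 44.0 untreated and 52.5 with JQ1 in replicate 2. Both sets resembled the other shared regions in width (medians 417 and 422 bp against 392 bp) and in the share inside genes (50.7% and 54.2% against 49.1%). The q-value behind the rank also rests on the local background. In replicate 2 its median for those moving down was 1.49 times the genome-wide background untreated and 2.37 with JQ1. For those moving up it was 2.23 and 1.83, as for the other shared regions. In replicate 1 it was 2.48 untreated in each set. With JQ1 it was 2.415 for those moving down, 2.03 for those moving up and 2.40 for the others. Its part in the shifts was not tested.

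The regions with the largest loss of rank lay at genes of varied roles. Inside SKAP1, an adaptor gene of T-cell receptor signalling, the stack was 46 and 161 fragments in untreated replicates 1 and 2 and 15 and 60 in the JQ1 replicates. Inside RAP1GAP, whose protein switches off the small GTPase Rap1, it was 45 and 148 untreated and 18 and 51 with JQ1. In these regions the JQ1 stack was the lower in each replicate and the ratio of coverages was below 0.50 in both. The ratio was 0.362 (95% exact counting interval 0.188 to 0.661) and 0.467 (0.341 to 0.632) at SKAP1. Others lay inside AKAP6, EPHA6 and BBOX1, 37.7 kb from PDE4B, which degrades cyclic AMP, and 1132 kb from CDH2, the gene of N-cadherin.

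Among the 8 with the largest gain, the region inside HECTD2, a ubiquitin ligase gene, had 17 and 41 fragments untreated and 43 and 79 with JQ1. In FDCSP, which codes for a small secreted protein, the stack was 24 and 64 untreated and 57 and 101 with JQ1. Inside TES, the gene of a focal adhesion protein, it was 19 and 132 untreated and 48 and 165 with JQ1. All 3 were higher with JQ1 within each replicate, although at TES and FDCSP untreated replicate 2 had more fragments than JQ1 replicate 1. On summit coverage this order held at TES (67.5 in untreated replicate 2, 42.6 in JQ1 replicate 1) and turned at FDCSP (32.7 and 50.6). The ratio of coverages at HECTD2 was 2.81 (95% exact counting interval 1.57 to 5.26) in replicate 1 and 2.41 (1.63 to 3.61) in replicate 2. The remaining 5 lay inside B4GALT5 and TPD52L1 and 121.1 kb from CLNK, 14.9 kb from LIX1 and 1.24 kb from ATP2B1, the gene of a calcium pump of the plasma membrane. Over the 16 regions, the counting interval of the ratio excluded 1 in both replicates in 9. These regions were picked for their shift, and the intervals cover counting error only.

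**Figure D4:**
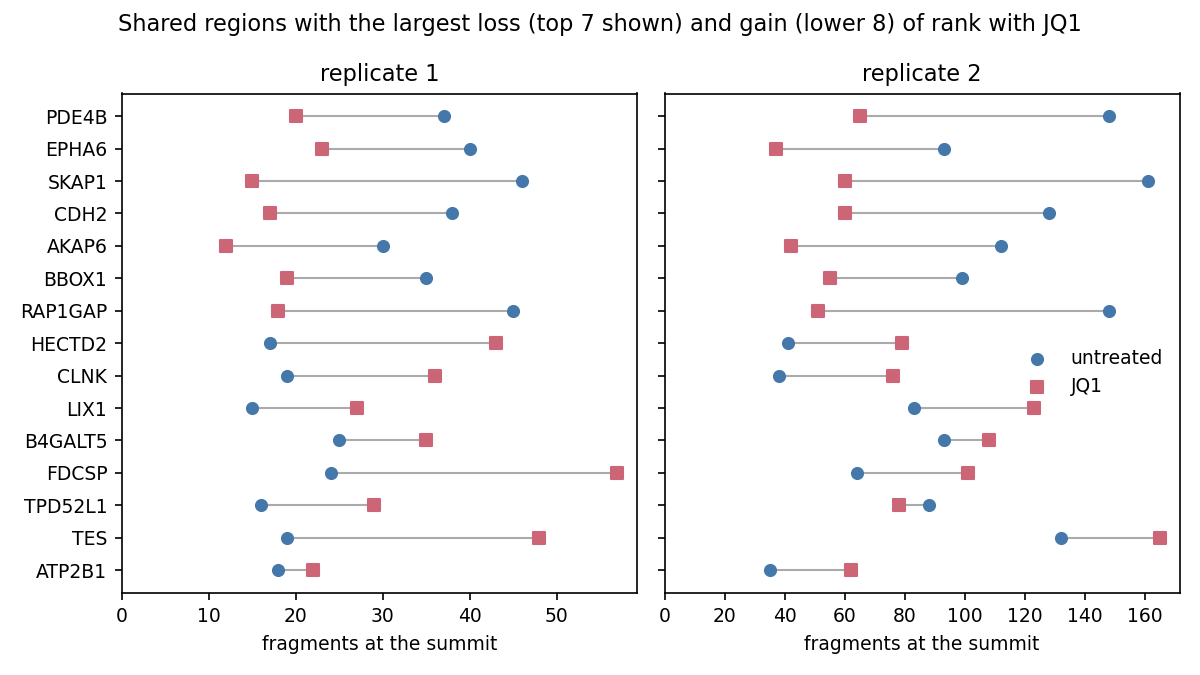
Fragments at the summit in untreated (circles) and JQ1 (squares) lists of replicate 1 (left) and replicate 2 (right), for 7 of the 8 shared regions with the largest loss and the 8 with the largest gain of rank, named by the nearest gene. In the upper 7 the JQ1 stack is the lower in both replicates. In the lower 8 it is the higher except at TPD52L1 in replicate 2 (88 untreated, 78 with JQ1), where the untreated list had more fragments in all.

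Most shared regions lay away from gene starts. Of the 3236, 1599 (49.4%) had their summit inside a protein-coding gene span and 726 (22.4%) lay more than 100 kb from any protein-coding gene. Within 1 kb of either the start or the end of a span lay 61 (1.89%). Within 1 kb of a protein-coding start lay 39, of which 28 are among the 61. Those starts came from the windows above, available for 15843 of 20037 protein-coding genes. The 214 shared regions of chromosome 8 were left out of the count of 39. Position was not used by the rule, and member peaks were compared with the other peaks of the same list. Inside genes were 49.3% of member peaks and 51.4% of other peaks in untreated replicate 1, 49.1% and 49.1% in untreated replicate 2, 49.2% and 51.3% in JQ1 replicate 1 and 49.0% and 50.3% in JQ1 replicate 2. The difference averaged −1.40 ± 1.01 percentage points (SD, n = 4), with an exact sign-flip permutation p of 0.13. Within 1 kb of a gene start or end were 1.80% of member peaks and 2.99% of other peaks in untreated replicate 1, 1.78% and 2.09% in untreated replicate 2, 1.84% and 2.73% in JQ1 replicate 1 and 1.82% and 2.13% in JQ1 replicate 2. Here the difference averaged −0.67 ± 0.438 points (SD, n = 4), with the same exact permutation p of 0.13, the smallest that 4 lists allow. All 4 lists went one way in both comparisons, but inside genes the difference in untreated replicate 2 was only −0.0065 points. The lists hold the same shared regions and are not independent.

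By rank, the share over 100 kb from a gene was 20.9% to 24.4% in 5 classes of about equal size, in no order. Of the 647 best-ranked shared regions 1.08% lay within 1 kb of a gene start or end, and in the 4 classes of lower rank 1.85% to 2.32%, differences of a few regions that were not tested. Among the starts used, the best-ranked region near a protein-coding start was that of DNAH5, with 65 and 166 fragments untreated and 52 and 124 with JQ1. Next among protein-coding starts came PRSS23, a serine protease gene, HK1, which codes for a hexokinase, CTXN3 and CYP3A43, a cytochrome P450 gene. At HK1 the stack was 71 and 171 untreated and 31 and 97 with JQ1, lower in each replicate. The 39 regions near a protein-coding start had a median log2 ratio of JQ1 to untreated of −0.15 in replicate 1 and −0.48 in replicate 2. For regions inside genes the medians were −0.20 and −0.30, and for those over 100 kb from a gene −0.18 and −0.27. The farthest lay 2154 kb from PCDH7, 1938 kb from NCAM2 and 1683 kb from MAT2B.

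Neighbouring shared regions lay a median of 438 kb apart, and 167 of 3212 gaps (5.20%) were under 10 kb. For all regions of the 4 lists the median gap was 35.8 kb. The gene with most shared regions was FHIT, a diadenosine hydrolase gene of 1504 kb, with 7 of the 34 regions inside it. CHODL held 6 of 12 in 350 kb, FNDC3B 6 of 15 and CTNNA3, MACROD2 and DLG2 6 each in spans of 1851 to 2173 kb. CPED1, TOX and SUGCT held 5 each. HMGA2, the gene of an architectural chromatin protein, held 4 in 142 kb, the highest density among these 10 genes. Length moved with these counts. A shared region within 50 kb was found for 6.95% of genes under 10 kb long and for 49.2% of those of 300 kb or more.

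Of 20037 protein-coding genes, 2720 (13.6%) had a shared region within 50 kb of their span and 1221 (6.09%) had one inside it. In the lists of genes examined, the nuclear receptors had 11 of 30 with a shared region within 50 kb, the ion channels and transporters 11 of 27, the WNT pathway 8 of 30 and the TGF-beta and BMP pathway 7 of 28. The cell adhesion and junction genes had 6 of 28, growth factor receptors and ligands 5 of 26, lipid and sterol metabolism 5 of 28, apoptosis and p53 genes 5 of 27, partners and cofactors of GATA factors 4 of 27 and genes of the endoplasmic reticulum and Golgi 4 of 28. The short genes of keratins and the epidermis had 1 of 28, and ribosomal protein genes 0 of 28. Median spans were 34.7 to 85.2 kb in the other 10 lists but under 5 kb for ribosomal protein genes and the keratin list, against 24.1 kb for all genes. The counts are descriptions of lists drawn up with earlier results of these data in view. So are the numbers of regions lower or higher with JQ1 given for each list below. They are by summit coverage, are to be read beside the 60.4% and 10.7% over all shared regions and show nothing particular to a list. On the deposited fold some of these regions went the other way.

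Among nuclear receptors, NR2F2, the gene of the orphan receptor COUP-TFII, had 2 shared regions inside a span of only 14.2 kb, with stacks of 34 and 148 untreated against 29 and 85 with JQ1, and of 43 and 134 against 23 and 93. Both had lower stacks and coverage with JQ1 in each replicate. On the deposited fold the first was higher with JQ1 in both (8.54 and 9.32 untreated, 9.91 and 21.6 with JQ1). PGR, the progesterone receptor gene, held 1 shared region (34 and 131 untreated, 31 and 75 with JQ1), and NR3C2, that of the mineralocorticoid receptor, 1 weak one (15 and 35 untreated, 16 and 28 with JQ1). Of the 14 shared regions near genes of this list, 8 were lower with JQ1 in both replicates and 2 higher in both.

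Partners of GATA factors included ZFPM2, whose protein (FOG2) binds GATA zinc fingers, with 4 shared regions inside. The region of rank 1293 had 32 and 82 fragments untreated and 28 and 126 with JQ1, that of rank 1520 had 20 and 78 against 34 and 85, that of rank 2605 had 16 and 65 against 19 and 81, and that of rank 2879 had 41 and 53 against 12 and 34. The 4 regions did not move together, with 2 higher with JQ1 in both replicates and 1 lower in both. FOXP1, a forkhead gene, held 1 (25 and 149 untreated, 23 and 96 with JQ1). LYL1 had 1 outside its span. Over the 7 shared regions near genes of this list, 1 was lower with JQ1 in both replicates and 2 higher.

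In the ion transport list, TRPV6, a calcium channel gene of epithelia, had 3 shared regions within 50 kb of its 14.5-kb span. The strongest ranked 54 and lay 11.1 kb away, with 97 and 222 fragments untreated and 57 and 151 with JQ1. The others had 39 and 162 against 34 and 114, and 33 and 161 against 27 and 81. SLC30A4, a zinc exporter gene, SLC4A4, that of a sodium bicarbonate cotransporter, and SLC2A12, a sugar transporter gene, had 2 each. Both regions inside SLC4A4 were higher with JQ1 in each replicate on the coverage scale (for the weaker, 26 and 75 fragments untreated against 31 and 64). Of the 19 shared regions near genes of this list, 14 were lower with JQ1 in both replicates and 3 higher in both.

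WNT genes with a shared region included the receptor gene FZD4, where regions 3.25 and 44.9 kb away had 86 and 132 fragments untreated against 41 and 77 with JQ1, and 61 and 177 against 38 and 131. On the deposited fold the farther region was higher with JQ1 in both replicates (9.65 and 13.6 untreated, 10.5 and 35.5 with JQ1). The nearer was lower in replicate 1 and higher in replicate 2 (15.4 and 18.3 untreated, 13.9 and 22.6 with JQ1). CTNNB1, the gene of beta-catenin, held 1 (28 and 143 untreated, 17 and 74 with JQ1), and the co-receptor gene LRP6 had 1 at 20.9 kb (56 and 164 untreated, 23 and 97 with JQ1). Of the 9 shared regions near genes of the WNT list, 7 were lower with JQ1 in both replicates, 1 higher. In the TGF-beta and BMP list the replicates went apart: 1 of 8 was lower in both and 1 higher in both, with a median log2 ratio of 0.56 in replicate 1 and −0.32 in replicate 2. For example, the region 1.84 kb from TGFB3, a ligand gene, had 17 and 104 fragments untreated and 29 and 69 with JQ1. BMPR1B, a receptor gene, held 2, with 24 and 165 against 28 and 97, and with 22 and 63 against 9 and 33.

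Growth factor genes with a shared region included MET, the receptor gene of hepatocyte growth factor (46 and 120 fragments untreated, 31 and 67 with JQ1), and the ligand gene HGF itself at 11.5 kb (42 and 156 untreated, 29 and 96 with JQ1). Both were lower with JQ1 in each replicate. ERBB4, a receptor gene of the neuregulins, held 2 in 1163 kb, of which 1 was higher with JQ1 in each replicate (15 and 104 untreated, 19 and 115 with JQ1). Of the 6 near genes of this list, 5 were lower in both replicates. Among junction genes, the region inside TJP1, the gene of the tight junction protein ZO-1, had 52 and 130 fragments untreated and 26 and 66 with JQ1. That inside CTNND2, a catenin gene, had 25 and 56 against 29 and 94, higher with JQ1 in each replicate. Over this list 4 of 6 were lower in both and 1 higher.

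Lipid genes had 7 shared regions within 50 kb, several of them strong. ACACA, the gene of acetyl-CoA carboxylase, had 3, the strongest of them 45.6 kb outside with 55 and 220 fragments untreated and 73 and 187 with JQ1. ELOVL7, a fatty acid elongase gene, held 1 with 71 and 229 against 49 and 174. PPARA, the gene of a lipid-sensing nuclear receptor, held 1 with 51 and 172 against 22 and 124. Near INSIG2, which restrains sterol synthesis, the stack was 58 and 198 against 32 and 98. Over the list, 4 of 7 were lower with JQ1 in both replicates and 2 higher. In the secretory list, XBP1, a factor of the unfolded protein response, had 1 at 22.6 kb (25 and 107 untreated, 13 and 58 with JQ1), and 4 of 5 were lower in both. The single region of the keratin list lay 5.53 kb from KRT4, with 35 and 112 against 18 and 68.

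Apoptosis genes shared their regions in part. BIRC2 and BIRC3, neighbours that code for inhibitors of apoptosis, were both within 50 kb of the same 2 regions, of rank 2770 and 3221 and 67 or fewer fragments in every list. TP53INP1 had the strong region of rank 14 within 41.9 kb, which itself lies inside NDUFAF6. FAS, a death receptor gene, held 1 with 32 and 126 fragments untreated and 27 and 75 with JQ1. Of the 6 distinct regions, 3 were lower with JQ1 in both replicates and 2 higher.

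By chromosome, shared regions numbered 1.10 per Mb over the genome. Chromosome 21 had most, at 2.03 per Mb (76 regions), followed by chromosome 12 at 1.52 and chromosome 8 at 1.48. Chromosome 16 had 0.304 per Mb (27 regions) and chromosome X 0.395 (60 regions). The local background under the shared regions was highest on chromosome 21 and low on chromosome 16, without following the density throughout. On chromosome 21 it was 3.99 and 3.02 times the genome-wide background in untreated replicates 1 and 2 and 3.60 and 3.03 in the JQ1 lists, and on chromosome 16 it was 1.24 and 1.49 untreated and 1.35 and 1.00 with JQ1. In untreated replicate 2, chromosome 20 had a background of 2.98 at 1.09 regions per Mb, chromosome 12 one of 2.23 at 1.52 per Mb, and chromosome 22 one of 2.38 at 0.568 per Mb. Copy number of the line was not measured here and its part in the density was not tested. Shared regions made up 14.2% of all regions on chromosome 19 and 12.5% on chromosome 21, and 5.79% on chromosome 13 and 5.76% on X.

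**Figure D5:**
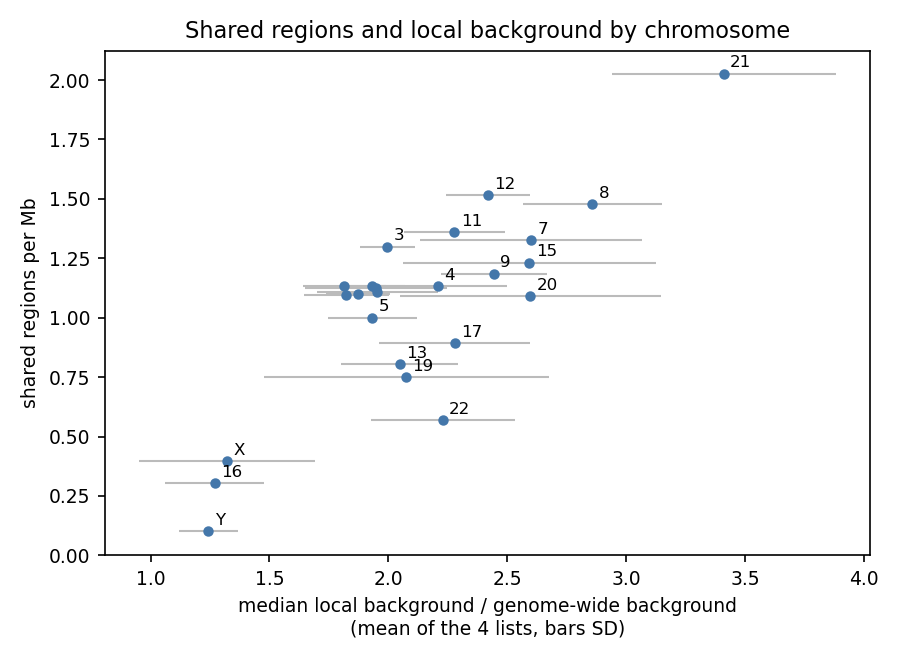
Shared regions per Mb (y axis) against the median local background under them as a multiple of the genome-wide background (x axis, mean of the 4 lists with SD as bars, n = 4), 1 point per chromosome. Chromosome 21 stands at the upper right with 2.03 per Mb and chromosomes 16 and X at the lower left with 0.304 and 0.395, above Y with 2 regions, and unlabelled points near 1.1 per Mb are chromosomes 1, 2, 6, 10, 14 and 18.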

How the data were processed

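GATA2 ChIP-seq peak lists of 4 VCaP precipitates were analysed, 1 list per sample and not pooled, per the labels. The submitters' processing notes name the aligner Bowtie2, the toolkit Picard and the peak caller MACS2, with build hg38, and no version. Settings and the source of the local background: not given in the sources used here. The deposited columns used were positions, the fold (a linear ratio at the summit), and the −log10 p and −log10 q of the authors' peak caller. The deposited score was not used for any test. The 4 inputs were not analysed here.

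Fragment stacks were recovered as whole numbers from the deposited fold (pseudocount 1) and −log10 p, a step tested on simulated data. Within a list, the peak of best q stood for a region. The 8 peaks of untreated replicate 2 on unplaced contigs and 10 mitochondrial peaks of JQ1 replicate 1 were left out. Genes (20037 protein-coding), miRNAs and start windows came from RefSeq, GRCh38.p14, the same build as hg38, and 335 of 336 gene list entries matched. No other genome sequence was used.

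The members and lists were chosen with earlier results of these data known. Named are the nearest genes of ranks 1 to 20, of the 8 largest losses and 8 gains of rank, the 5 widest regions, the 5 best within 1 kb of a gene start, the 3 farthest from genes, the 10 genes holding most, and at most 4 genes per list. The regions printed at gene starts, near CNTN6 and at the edge of the rule were chosen after their values were seen. Two-sided exact permutation tests ran over samples (2 against 2) or sign flips over 4 lists. Intervals on shares are Wilson's at 95% and on fragment ratios exact, and both cover counting error only. Alternatives in overlap, threshold, list length and left-out lists were tried. Python 3.11.15, numpy 2.4.6, scipy 1.17.1 and pandas 2.3.3 were used. Some genes that the naming rule takes are not reported here.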

Additional observations from a re-analysis of the deposited data

Results flagged for a closer look

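The list of JQ1 replicate 1 held 10 peaks on the mitochondrial genome, with a deposited fold of 1.36 to 1.87, while the other 3 lists held 0. They lie outside the chromosomes on which shared regions were defined and enter no result here. A closer look is due because a signal appears in 1 library alone.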

How the results depend on the processing

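The number of shared regions was 3236 and stayed between 2580 and 3254 with reciprocal overlap of 50%, summits within 100 bp or stricter q-values. With lists cut to equal length it was 2022, and leaving out 1 list gave 3250 to 6126, the highest without JQ1 replicate 1 and 4565 without untreated replicate 1. The JQ1 difference in log2 median fold (−0.16) ran from −0.84 to 0.52 when 1 list was left out and reversed without untreated replicate 2 (0.51) and without JQ1 replicate 1 (0.52), settings that leave 1 list against a pair of both replicates. The difference in log2 number at fold 10 or more (−0.44) ran from −1.70 to 0.83 and reversed in the same settings (0.45 and 0.83). It was −0.04 at fold 5 and −1.13 at fold 20. With the replicate number as a block both kept their values, −0.16 and −0.44, with an exact sign-flip p of 0.5, the smallest it can give. The labels state no pairing behind the numbers. The mean shares inside genes and near gene starts or ends stayed below those of other peaks in every alternative run (−1.89 to −0.61 and −1.36 to −0.42 percentage points). Inside genes with lists of equal length the exact sign-flip permutation p was 0.5, so the lists did not all go one way there. Regions lower with JQ1 in both replicates numbered 1956 by coverage and 1220 by the deposited fold, for which the cause was not tested. Regions of lower rank numbered 134 by q-value, 102 by coverage and 219 by fold, and those of higher rank 155, 155 and 221. All 16 named for a rank shift kept their sign by the deposited fold. Median stacks were 23 and 29 fragments in the replicate 1 lists and 69 and 106 in those of replicate 2, so counting error is widest in replicate 1. The last 3 kinds of alternative were chosen after seeing the data.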

Other observations

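One shared region overlapped the hairpin of a microRNA, MIR4455 on chromosome 4, at rank 1636 of 3236. Regions near MIR4299 (rank 2317) and MIR759 (rank 2166) were close to a hairpin without touching it.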
